A study of Homo sapiens with 10 samples.

Results

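Levels of 51 genes of ribosome biogenesis and the nucleolus were followed through treatment of 3 liver cancer cell lines. The 51 were taken by symbol from a table of 20030 entries, and cover RNA polymerase I, rRNA modification, processing of the precursor rRNA, assembly of both ribosomal subunits, and NMD3, the adaptor through which the export receptor XPO1 carries large subunits out of the nucleus. All 51 were in the table, and all 51 were among the 10477 genes that passed the filter on low values (a mean of at least 1 FPKM over all libraries). The unit is FPKM, the fragments counted for a gene, scaled to its length and to the size of the library.

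The lines were Huh7, PLC and 97H, and total RNA was sequenced from vehicle controls, cells given a CDK4/6 inhibitor, cells given an XPO1 inhibitor (KPT330 in the sample titles) and cells given both. All 3 lines had a control library and a CDK4/6 inhibitor library, whereas PLC and 97H alone had the XPO1 inhibitor and the combination, which makes 10 libraries. The labels used here name neither the CDK4/6 compound nor any dose or exposure time. Each line had 1 library per treatment, so the line served as the replicate (n = 3 for the CDK4/6 inhibitor, n = 2 for the XPO1 inhibitor and the combination). The labels do not say whether libraries came from separate cultures. Level differences between lines were removed in the fit. A p-value for a treatment sets its mean effect against the spread that remained between lines. That spread was pooled over all treatments in the fit and drawn partly from other genes.

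Ribosomes are made in the nucleolus, where RNA polymerase I copies the rRNA genes. Small nucleolar RNPs then guide methylation and pseudouridylation of the transcript, while processing and assembly factors cut and fold it into pre-40S and pre-60S particles. Pre-60S particles leave the nucleus with NMD3 bound to XPO1. Many of these genes are known targets of the transcription factor MYC, which binds the E-box CACGTG with its partner MAX, and growing tumour cells commonly express them at high levels.

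That hexamer was looked for in the promoters, as a feature the genes might share. It reads the same on both strands. RefSeq promoter sequences (GRCh38.p14), each running from 250 bases before to 50 bases after the transcript start, were matched for 43 of the 51 genes. CACGTG was present in 18 of the 43 (41.9%), against 1126 of the 8622 tested genes with a promoter sequence (13.1%) and 8.8% of all genes with one. Of the 22 occurrences in the 43 genes, 13 (59.1%) lay after the start, against 10.6% of the 1373 occurrences in tested genes. The 8 sequences of 30 bases that follow come from genes of several roles and are written 5′ to 3′ on the gene's own strand, with the hexamer in capitals, as examples of copies close to the start. Other copies stood farther out, at 237 bases before the start in EBNA1BP2, 203 in IMP4 (a second copy), 170 in NOP10, 89 in UTP18 and 64 in LYAR.
FBL: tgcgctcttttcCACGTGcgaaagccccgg
GAR1: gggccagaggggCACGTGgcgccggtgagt
WDR43: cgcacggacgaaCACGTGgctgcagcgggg
UTP20: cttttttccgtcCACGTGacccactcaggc
IMP4: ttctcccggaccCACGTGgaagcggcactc
RRP9: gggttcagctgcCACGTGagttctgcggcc
PES1: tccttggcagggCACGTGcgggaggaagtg
MRTO4: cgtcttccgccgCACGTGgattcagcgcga
The hexamer began 7 bases after the start in FBL (chr19:39846356-39846385, minus strand), 4 after it in WDR43 (chr2:28894658-28894687, plus) and 15 after it in MRTO4 (chr1:19251807-19251836, plus). It stood 14 bases after the start in PES1 (chr22:30591880-30591909, minus), 16 after it in IMP4 (chr2:130342900-130342929, plus) and 32 after it in GAR1 (chr4:109815781-109815810, plus). In RRP9 it stood 5 bases before the start (chr3:51941892-51941921, minus), and in UTP20 10 before it (chr12:101280083-101280112, plus). No CACGTG was found in the window of NPM3. A match describes the letters and is no evidence of binding.

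In the control cells the genes were well expressed. Their median level was 19 FPKM for Huh7, 28.9 for PLC and 23.2 for 97H, against 7.60, 6.47 and 6.70 over all tested genes. Summed, they made up 0.62% of all FPKM in the Huh7 control, 0.873% in the PLC control and 0.75% in the 97H control. The most abundant in PLC was NOP10, a small protein of the H/ACA particle, at 435.8 FPKM, followed by NPM1, the nucleolar chaperone nucleophosmin, at 379.6. UTP15, a component of the small subunit processome, was at the low end, with 0.82 to 3.17 FPKM over the 10 libraries. The highest of the 3 control levels was in PLC for 22 genes, in 97H for 22 and in Huh7 for 7.

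The share of the library taken by these genes was lower in every treated library than in the control of the same line. Each line had 1 control library, so the comparisons within a line are not independent. In Huh7 it went from 0.62% to 0.362% with the CDK4/6 inhibitor. The PLC shares were 0.79% under CDK4/6 inhibition, 0.838% under XPO1 inhibition and 0.662% under both, below the 0.873% of the control. In 97H the corresponding shares were 0.564%, 0.631% and 0.407%, below 0.75%. The combination had the lowest share in both lines that received it. A sum gives most weight to the abundant genes. In PLC, 25 of 51 genes were below the control with the CDK4/6 inhibitor (median log2 difference 0.02) and 23 with the XPO1 inhibitor (0.07). Of the 10477 tested genes, 4183 (median 0.18) and 4349 (median 0.14) were below that control in the same order. A lower FPKM is a lower part of the RNA sequenced, and a fall in total RNA per cell cannot be read from it.

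Facts of the whole set of libraries bear on these values. Of 10 liver epithelial markers, all 10 reached 1 FPKM in every Huh7 and PLC library and 7 to 9 did in 97H, where ALB, the gene of albumin, stood at 2.32 to 15.9 FPKM. ALB was at 3.29 to 9.74 in PLC and at 1062 and 1261 in Huh7. The summed level of 10 markers of other cell types was 22.8 FPKM in the PLC control and 127.2 with the combination, and 60.6 and 151.9 in 97H. CD68, a lysosomal gene used as a macrophage marker, made up most of that sum in the combination libraries, at 126.6 FPKM in PLC and 81.1 in 97H, against 22.7 and 48.5 in the controls. In Huh7 the sum was 22.1 in the control and 72.1 with the CDK4/6 inhibitor. LUM, a gene of fibroblasts, was at 9.51 and 40.8 in Huh7 and at 3.17 and 26.0 in the control and combination libraries of 97H, where KRT7, a bile duct keratin, was at 5.23 and 34.6 and COL1A1, a collagen gene, at 0.17 and 3.81. The leukocyte markers PTPRC and CD3E stayed at or below 0.035 FPKM in every library. The part of these markers in the results was not tested. No 2 libraries held identical values, and the number of reads behind each library is unknown from FPKM.

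**Figure D1:**
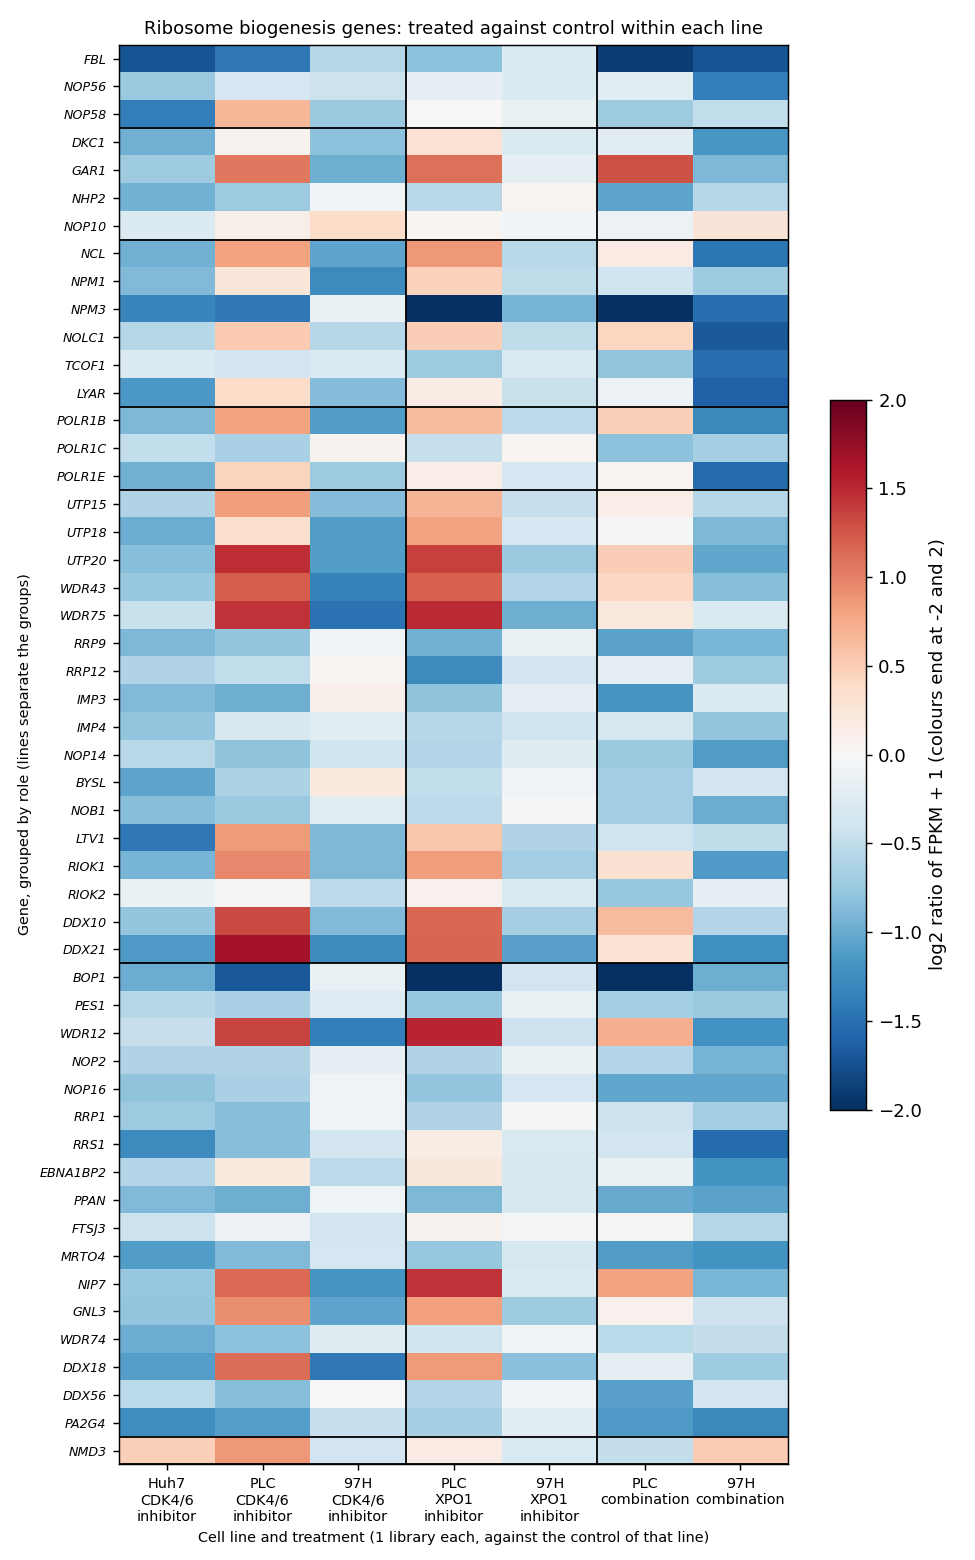
Log2 ratio of FPKM + 1, treated against the control of the same line, for each of the 51 genes (rows, grouped by role) in each treated library (columns); blue is lower and red higher, and colours end at -2 and 2. FBL and NPM3 are blue in all 7 columns, and so are other genes, PA2G4 and MRTO4 among them. WDR12, NIP7 and WDR75 are red in PLC and blue in 97H.

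Combined treatment was compared with the control in PLC and 97H. The genes that fell were FBL, the fibrillarin gene, whose product is the methyltransferase of C/D box particles, and NPM3, a small relative of NPM1. These 2 of 51 passed an adjusted p of 0.05 in limma (Benjamini-Hochberg over all 10477 genes), and 0.487% of all tested genes were called lower. A further 17 of the 51 had an unadjusted p under 0.05, all of them lower, giving 19 lower and 0 higher against 6.07% and 6.35% of all tested genes. The fitted difference was below 0 for 47 of 51, against 43.7% of all tested genes, and the median difference on the scale of log2(FPKM + 1) was -0.61 against 0.07. NOP10, GAR1, DDX10 and NMD3 were the 4 with a fitted difference above 0, none with an adjusted p under 0.05. Of the 8 fits that left out 1 library, those without a single-inhibitor library could not move the fitted differences of this comparison. The 2 calls were lost without the PLC control, the PLC combination or the 97H combination, 3 of the 4 libraries compared. The same held without the line as a block, where no gene of the table was called. The calls were also lost with no filter on low genes (adjusted p of 0.264 for FBL and 0.307 for NPM3) and with a single prior variance (0.0838 and 0.0832).

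The CDK4/6 inhibitor alone was compared with the control in all 3 lines. No gene of the 51, and 0% of all tested genes, passed an adjusted p of 0.05 in limma, where the smallest adjusted p among the 51 was 0.461. At an unadjusted p under 0.05, 14 of 51 were lower and 0 were higher, while 4.23% of all tested genes were lower and 4.57% higher. The fitted difference was below 0 for 49 of 51, against 46.3% of all tested genes, with a median of -0.47 against 0.03. Counted line by line, 21 of 51 (41.2%) were lower in each of the 3 lines, against 10.3% of all tested genes, and 0 were higher in all 3, against 12.9%. More of them, 24 of 51 (47.1%), were lower in Huh7 and 97H but higher in PLC, against 26.4%. The median of the fitted differences rested partly on Huh7: without either Huh7 library it was -0.25, with 44 of 51 below 0.

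The XPO1 inhibitor alone was set against the control in PLC and 97H. No gene of the 51, and 0% of all tested genes, passed the adjusted threshold in limma. An unadjusted p under 0.05 was reached by 2 of 51, NPM3 and BOP1, both lower, against 0.668% of all tested genes lower and 1.79% higher. The fitted difference was below 0 for 35 of 51, against 40.5%, and the median was -0.10 against 0.10. The median rested on single libraries: it was -0.40 without the PLC control and 0.05 without the 97H control. Other scalings of the libraries moved the median of all genes by about 0.1, to -0.01, and left the median of the 51 below 0 (-0.17 after quantile normalization and -0.23 after median ratio scaling).

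The combination was also set against each inhibitor alone. Against the CDK4/6 inhibitor, 0 of the 51 and 0% of all tested genes were called, 2 of 51 were lower at an unadjusted p under 0.05 and 0 higher, against 1.99% and 1.3% of all tested genes, and 49 of 51 were below 0 against 50.8%. The median difference was -0.33 against -0.01. Against the XPO1 inhibitor, 0 of the 51 and 0% of all tested genes were called, 2 of 51 were lower at an unadjusted p under 0.05 and 0 higher, against 2.81% and 2.16%, and 48 of 51 were below 0 against 54.7%, with a median of -0.48 against -0.04. The interaction, which asks whether the combination differed from the sum of both single effects, gave 0 calls, 0 of 51 with an unadjusted p under 0.05 and 0.515% of all tested genes lower and 0.0573% higher at that level. Its fitted value was below 0 for 38 of 51, against 61.4%. Its median was -0.20 over the 51 and -0.11 over all tested genes. These comparisons share libraries, and each is given for its own values.

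**Figure D2:**
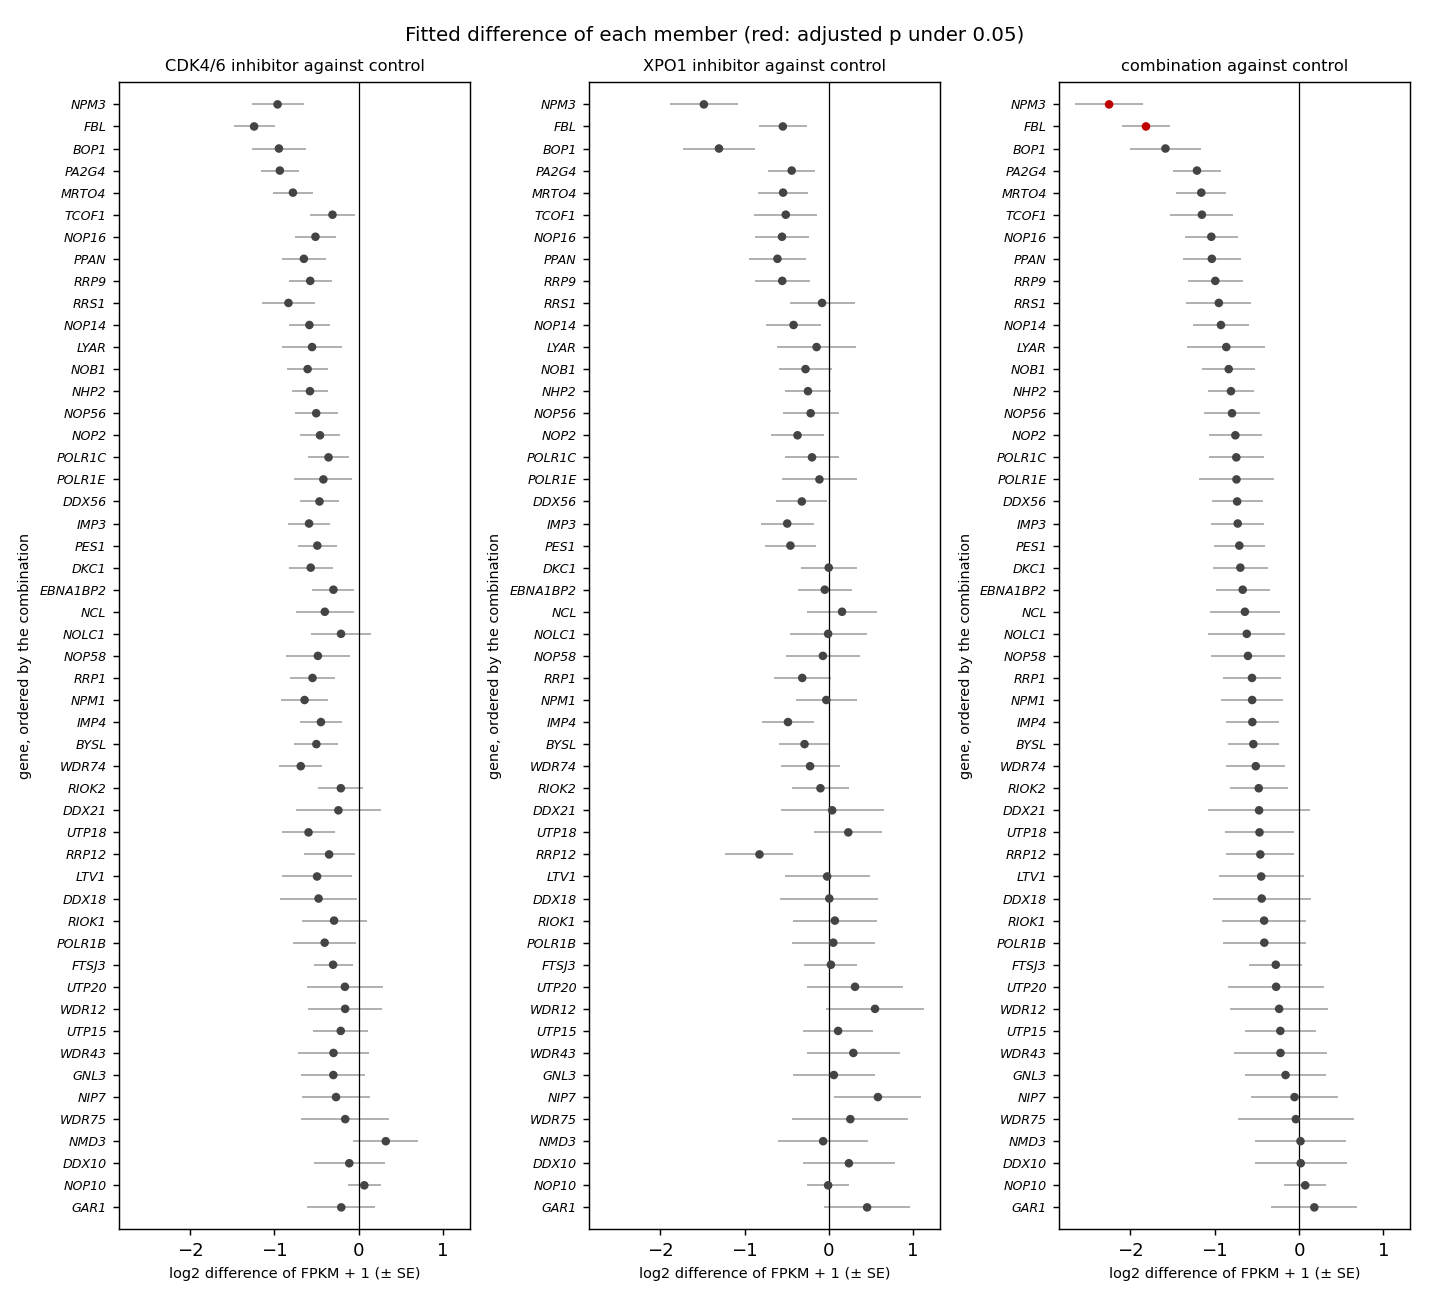
Fitted difference in log2(FPKM + 1) against control, with its standard error, for each of the 51 genes under the CDK4/6 inhibitor (10 libraries), the XPO1 inhibitor and the combination (8 libraries each); genes are ordered by the combination. FBL and NPM3, in red, are the 2 with an adjusted p under 0.05, and most points of the left and right panels lie below 0.

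Among the C/D box proteins, which assemble on the RNAs that guide rRNA methylation, FBL (chr19:39834458-39846414, GRCh38, minus strand) was at 208.5 FPKM in the PLC control. CDK4/6 inhibition left 76.9, XPO1 inhibition 117.8 and the combination 55.2. In 97H its level was 258.7 in the control, 174.4 and 213.7 with the single inhibitors and 77.2 with the combination, and in Huh7 it was 180.3 in the control and 53.8 with the CDK4/6 inhibitor. Both combination libraries were below every control. That restates the values that gave FBL its small p and is no further evidence. The fitted difference for the combination was -1.82 (SE 0.29, n = 2 lines, limma adjusted p = 0.0345), and leaving out single libraries moved it between -2.08 and -1.55. Under the CDK4/6 inhibitor FBL had the smallest p of the 51, with a difference of -1.24 (SE 0.24, adjusted p = 0.461), and under the XPO1 inhibitor the difference was -0.55 (SE 0.29, adjusted p = 0.968). Its 2 partners in the particle were not called: NOP56 had a difference of -0.80 (SE 0.33, adjusted p = 0.365) and NOP58 of -0.61 (SE 0.43, adjusted p = 0.651) with the combination.

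H/ACA proteins assemble on the RNAs that guide pseudouridylation and are also found in telomerase. Of the 4 genes here, 2 had fitted differences below 0 in the combination (median -0.31), against 43.7% of all tested genes. NHP2, an RNA-binding subunit, had the smallest p of these 4 in the combination. It was at 319.1 FPKM in the PLC control, 191.7 and 217.8 with the CDK4/6 and XPO1 inhibitors and 153.4 with the combination. In 97H it was at 118.6, 113.6, 123.1 and 80.0 in the same order, and in Huh7 at 126.8 and 65.6. The PLC levels lay above all others, so that the combination library of PLC exceeded the 97H control. The fit takes out such level differences between lines, and its difference was -0.81 (SE 0.27, limma adjusted p = 0.247). Exons on the opposite strand from the neighbour RMND5B cover 27.4% of the exonic bases of NHP2, and the sources used here do not say whether strand was counted. NOP10 differed least, by 0.07 (SE 0.25) with the combination.

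GAR1, the other small H/ACA subunit, went different ways in the lines. In PLC it was at 9.68 FPKM in the control and at 21.2, 21.9 and 24.7 under CDK4/6 inhibition, XPO1 inhibition and both. In 97H it was at 21.9 in the control and at 10.7, 19.0 and 11.2, and in Huh7 at 13.9 and 8.09. All 3 treated PLC libraries were above their control and all 3 treated 97H libraries below theirs.

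The scaffolds and chaperones of the nucleolus all had fitted differences below 0 in the combination (6 of 6, median -0.75), against 43.7% of all tested genes. NPM3 (chr10:101781325-101783413, GRCh38, minus strand) was at 95.5 FPKM in the PLC control, 34.9 under CDK4/6 inhibition, 22.7 under XPO1 inhibition and 11.2 under both. In 97H the same series read 23.2, 20.98, 11.7 and 7.42, and in Huh7 the gene was at 30.1 in the control and 11.4 with the CDK4/6 inhibitor. In both lines the order was control, CDK4/6 inhibitor, XPO1 inhibitor, combination, and no combination library reached the level of a control. These are the values that gave NPM3 its small p, and they add no further evidence. The difference was -2.25 (SE 0.40, n = 2 lines, limma adjusted p = 0.0461) for the combination, with values from -2.89 to -1.61 when single libraries were left out. It was -1.48 (SE 0.40, adjusted p = 0.968) for the XPO1 inhibitor and -0.96 (SE 0.31, adjusted p = 0.492) for the CDK4/6 inhibitor. Against the CDK4/6 inhibitor alone, the combination differed by -1.47 (SE 0.40, adjusted p = 0.679).

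TCOF1, which encodes treacle, a cofactor of RNA polymerase I, was at 19.7, 14.8, 11.6 and 11.01 FPKM in PLC and at 21.7, 17.8, 17.3 and 6.90 in 97H, in the order control, CDK4/6 inhibitor, XPO1 inhibitor, combination. In Huh7 it was at 16.9 and 13.8. Both combination libraries were the lowest of their line, and the difference was -1.15 (SE 0.37, adjusted p = 0.235). NOLC1, a chaperone of the small nucleolar RNPs, split by line: 26.2, 38.0, 37.4 and 35.9 in PLC against 30.3, 19.98, 20.9 and 8.78 in 97H, with 26.9 and 17.8 in Huh7. The most abundant members of the group were not called in the combination either, with differences of -0.64 (SE 0.42) for NCL, the nucleolin gene, and -0.56 (SE 0.36) for NPM1.

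Of the 3 subunits of RNA polymerase I, all had fitted differences below 0 in the combination (median -0.74), against 43.7% of all tested genes. POLR1C, shared with RNA polymerase III, had the smallest p. Its levels were 33.3, 20.8, 24.0 and 18.4 FPKM in PLC, 19.9, 21.1, 20.8 and 12.2 in 97H, and 11.7 and 8.01 in Huh7. In 97H the combination alone stood apart from the control, and the difference of -0.74 (SE 0.33) had an adjusted p of 0.397. POLR1B, the second-largest subunit, read 9.80, 17.8, 15.6 and 13.9 in PLC, 15.9, 6.81, 10.8 and 5.92 in 97H, and 10.3 and 5.11 in Huh7, so that PLC and 97H lay on opposite sides of their controls.

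The group of 17 genes for the small subunit holds the U3 processome and late 40S assembly factors. In the combination 16 of 17 had fitted differences below 0 (median -0.47), against 43.7% of all tested genes. At an unadjusted p under 0.05, 4 of 17 were lower, against 6.07% of all tested genes. RRP9, a protein of the U3 particle, led the group. It was at 54.4, 31.2, 27.6 and 25.4 FPKM in PLC, at 30.4, 29.4, 27.3 and 15.6 in 97H, and at 24.0 and 12.5 in Huh7. Its PLC level was lower in every treated library, whereas 97H was within 4 FPKM of its control except with the combination, and the difference was -0.99 (SE 0.33, adjusted p = 0.238). RRP12, which takes part in export of both subunits, was at 30.9, 21.8, 12.2 and 26.8 in PLC, at 13.5, 13.9, 10.2 and 7.82 in 97H, and at 13.6 and 8.61 in Huh7. The XPO1 inhibitor library was the lowest in PLC, and the combination the lowest in 97H. Its differences were -0.82 (SE 0.40) for the XPO1 inhibitor and -0.46 (SE 0.40) for the combination, with adjusted p of 0.968 and 0.74.

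The 17 genes of 60S assembly all had fitted differences below 0 in the combination (median -0.71), against 43.7% of all tested genes. At an unadjusted p under 0.05, 9 of 17 were lower, against 6.07% of all tested genes. PA2G4, which encodes the pre-60S and growth factor receptor-binding protein EBP1, was at 245.3, 114, 155.2 and 111.7 FPKM in PLC, at 246.8, 178.9, 211 and 100.2 in 97H, and at 163.2 and 68.4 in Huh7. The controls of PLC and 97H were nearly equal, as were the combination libraries, and the difference was -1.21 (SE 0.28, adjusted p = 0.118). MRTO4, a pre-60S factor that holds the place of the stalk protein P0, was at 73.5, 39.5, 42.9 and 33.4 in PLC, at 50.5, 39.4, 40.2 and 21.4 in 97H, and at 35.4 and 15.8 in Huh7, giving -1.16 (SE 0.29, adjusted p = 0.148). All treated libraries of both genes were below the control of their own line.

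BOP1, which forms the PeBoW complex with PES1 and WDR12, differed by unequal amounts across lines. It was at 91.6, 27.7, 18.9 and 19.4 FPKM in PLC, at 82.8, 74.5, 63.1 and 41.4 in 97H, and at 39.6 and 19.4 in Huh7. The 3 treated PLC libraries were close to each other and far below their control, while the treated 97H libraries were nearer to theirs. The combination difference was -1.58 (SE 0.42, adjusted p = 0.164), and those of the XPO1 inhibitor and the CDK4/6 inhibitor were -1.30 (SE 0.42, adjusted p = 0.968) and -0.95 (SE 0.32, adjusted p = 0.493). Leaving out single libraries moved these between -2.35 and -0.82, between -2.07 and -0.54, and between -1.37 and -0.54, with the values nearest 0 without the PLC control and those farthest from 0 without the 97H control.

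WDR12, its partner, ran the other way in PLC, with 6.51, 18.1, 20.7 and 11.5 FPKM. It was at 14.7, 5.07, 10.6 and 5.79 in 97H and at 9.44 and 6.60 in Huh7. In PLC these genes of 1 complex therefore did not share a pattern: every treated library had less BOP1 and more WDR12 than the control. In 97H and Huh7 both genes were below the control in every treated library. The GC content of the transcript was 65.2% for BOP1 and 40.2% for WDR12, and its part in the split was not tested.

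NOP16 and PPAN are further nucleolar factors of pre-60S assembly. NOP16 was at 46.4, 29.1, 26.8 and 22.1 FPKM in PLC, at 20.4, 19.3, 15.9 and 9.38 in 97H, and at 14.4 and 7.77 in Huh7 (-1.04, SE 0.32, adjusted p = 0.214). PPAN was at 50.5, 25.0, 26.6 and 24.7 in PLC, at 27.9, 26.2, 22.2 and 12.8 in 97H, and at 19.8 and 10.3 in Huh7 (-1.03, SE 0.34, adjusted p = 0.243). Both were lower in every treated library than in the control of the line, and the 97H values with a CDK4/6 inhibitor alone were within 2 FPKM of that control. A read-through transcript with P2RY11 covers 56.0% of the exonic bases of PPAN, and how the authors divided such reads is not given in the sources used here.

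RRS1, needed to bring the 5S RNP into the pre-60S particle, and WDR74 were among the 8 smallest p under the CDK4/6 inhibitor. RRS1 was at 41.0 FPKM in the Huh7 control and 16.4 with that inhibitor, at 83.6, 45.7, 92.8 and 64.7 in PLC, and at 82.0, 63.2, 65.9 and 27.6 in 97H. WDR74 was at 12.7 and 5.85 in Huh7, at 16.5, 8.94, 12.3 and 11.03 in PLC, and at 12.9, 10.7, 12.4 and 8.93 in 97H. Both were below the control with the CDK4/6 inhibitor in each line, with differences of -0.83 (SE 0.31) and -0.69 (SE 0.26) and an adjusted p of 0.513. NIP7, which acts in pre-60S processing, was at 9.57, 22.2, 27.9 and 17.5 in PLC, at 20.7, 8.59, 16.8 and 10.6 in 97H, and at 20.99 and 11.98 in Huh7, again with opposite directions in PLC and 97H.

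NMD3, the export adaptor, was at 3.41, 7.05, 3.95 and 2.17 FPKM in PLC, at 5.83, 4.25, 4.54 and 8.71 in 97H, and at 5.74 and 8.36 in Huh7. The combination library was the lowest of PLC and the highest of 97H. The fitted difference was 0.02 (SE 0.53, adjusted p = 0.999) for the combination and -0.07 (SE 0.53, adjusted p = 0.99) for the XPO1 inhibitor.

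**Figure D3:**
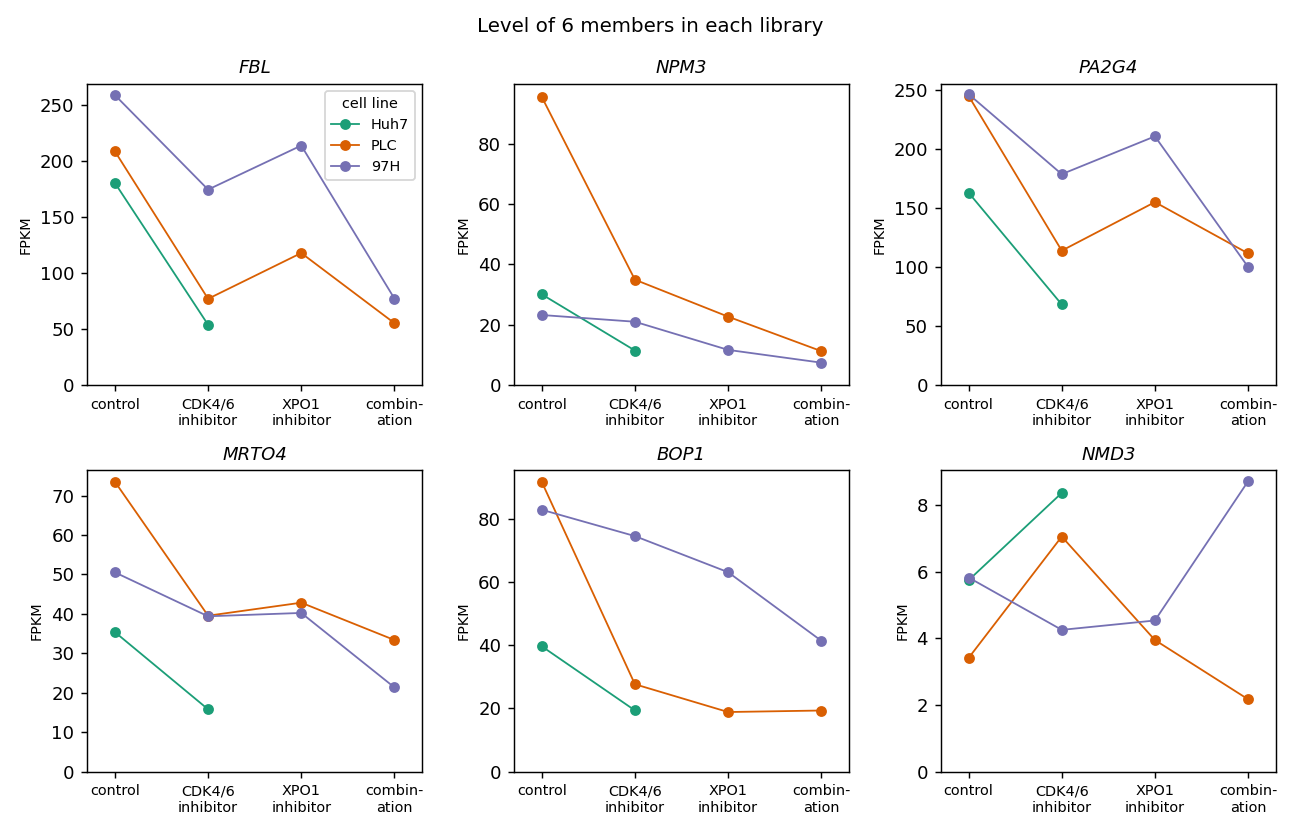
FPKM of FBL, NPM3, PA2G4, MRTO4, BOP1 and NMD3 in each library (points), by treatment, with lines joining the libraries of 1 cell line. FBL goes from 208.5 and 258.7 in the PLC and 97H controls to 55.2 and 77.2 with the combination, and NMD3 goes different ways in PLC and 97H.

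Within single lines the 3 cell lines gave different pictures, with 1 library a side and hence no test. In Huh7 the CDK4/6 inhibitor library was lower than its control by at least 0.5 on the log2 scale for 43 of 51 genes, against 18.3% of all tested genes, and higher by as much for 0, against 15% (median -0.85). In 97H the same inhibitor gave 25 lower (49%), against 23.1%, and 0 higher, against 13.1% (median -0.46). In PLC it gave 20 lower (39.2%), against 19.2%, and 18 higher (35.3%), against 37.3% (median 0.02). The XPO1 inhibitor gave 14 lower (27.5%), against 8.93%, and 0 higher, against 9.89%, in 97H. In PLC it gave 19 lower (37.3%), against 19.7%, and 16 higher (31.4%), against 36%.

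With the combination, 41 of 51 genes were lower by at least 0.5 in 97H, against 18.5% of all tested genes, and 1 was higher, against 19.9% (median -0.91). In PLC 21 were lower (41.2%), against 19.9%, and 4 were higher (7.84%), against 29.1% (median -0.37). Taken over both lines, 33 of 51 (64.7%) were lower in PLC and in 97H, against 24.2% of all tested genes, and 0 were higher in both, against 29.6%. A further 16 were higher in PLC and lower in 97H, a pattern shared by 26.6% of all tested genes.

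In PLC, being above or below the control moved with the GC content of the transcript. With the CDK4/6 inhibitor in PLC, the 27 of the 51 whose transcripts had less GC than the median tested gene (50.1%) had a median difference of 0.83, and the 24 with more had -0.76. In 97H the order was the reverse, -0.91 and -0.20, and in Huh7 both were low, -0.78 and -0.87. Spearman's rho between GC content and the difference, over the 51 genes as a description, was -0.81 for PLC, 0.76 for 97H and -0.11 for Huh7. Over all 10448 tested genes with a GC value it was -0.68, 0.72 and 0.18, so the trend ran through the whole table. Genes are not independent replicates, and all points of a panel share the same pair of libraries.

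The XPO1 inhibitor showed the same trend, with rho of -0.82 over the 51 in PLC and 0.51 in 97H, against -0.72 and 0.47 over all tested genes. With the combination it was -0.60 in PLC and -0.19 in 97H, against -0.29 and 0.26. In 97H the combination gave nearly the same median for low GC and high GC members, -0.89 and -0.96, while PLC gave 0.09 and -0.72. After trends with GC content and length were removed from each library, the medians of the 51 were for the CDK4/6 inhibitor -0.78 (Huh7), 0.004 (PLC) and -0.53 (97H), and for the combination -0.22 in PLC and -0.92 in 97H. For all tested genes the same measure gave medians of -0.06, 0.21, -0.10, 0.11 and 0.01, in that order. By that measure the CDK4/6 inhibitor left 7 lower (13.7%) and 9 higher (17.6%) by at least 0.5 in PLC, in place of 20 and 18. All tested genes gave 9.5% lower and 30.6% higher. The XPO1 inhibitor left 7 lower and 7 higher in PLC (13.7% each), in place of 19 and 16, against 9.35% and 26.7% of all tested genes. The counts in Huh7 (42 lower) and in 97H (27 lower, and 39 with the combination) moved little. Of all tested genes, 17.1% in Huh7 were lower by as much, and in 97H 11.8%, or 17.2% with the combination. With trends removed, 5 of the 51 were called in the combination, while the share of all tested genes called went from 0.792% to 5.51%. They were FBL and NPM3 together with BOP1 (-1.60, adjusted p = 0.00932), PA2G4 (-1.18, adjusted p = 0.0247) and MRTO4 (-1.04, adjusted p = 0.0285).

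**Figure D4:**
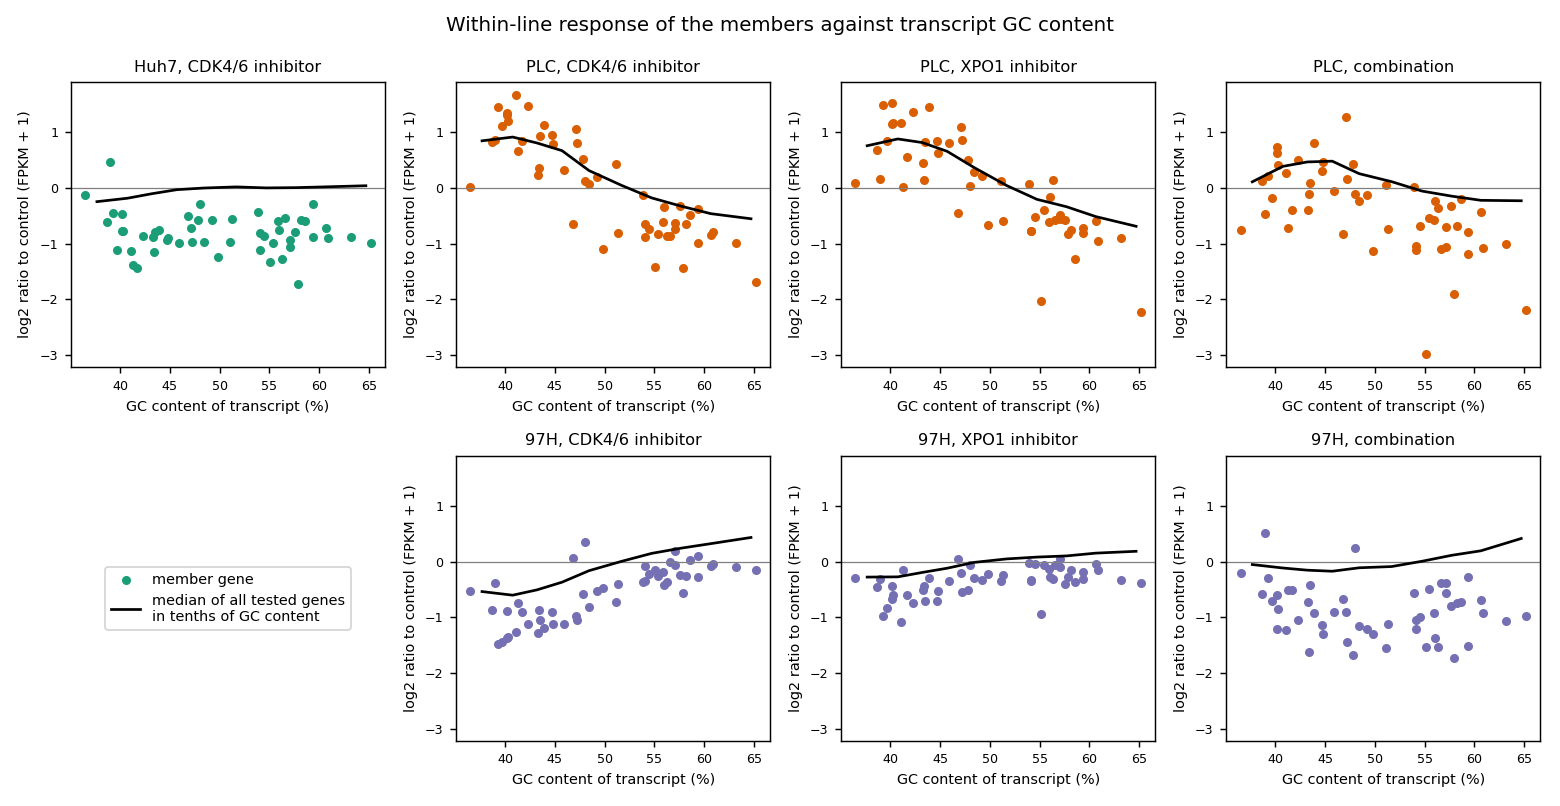
Log2 ratio of FPKM + 1 to the control of the same line against the GC content of the transcript (percent), 1 panel per line and treatment; points are the 51 genes and the black line joins medians of all tested genes in 10 bins of GC content. In PLC the points fall from left to right, in 97H with the CDK4/6 inhibitor they climb, and in Huh7 and in 97H with the combination most lie below the line at every GC content.

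A pair of small subunit genes shows the contrast in letters. They were chosen after their values were seen. WDR75, a processome protein (chr2:189441433-189475565, GRCh38, plus strand), has a transcript of 39.3% GC, and RRP9 (chr3:51933430-51941941, minus strand) one of 60.9%. The 150 bases at the middle of each coding sequence follow, coding bases 1172 to 1321 of WDR75 (39.3% GC) and 640 to 789 of RRP9 (60% GC), with G and C in capitals.
WDR75: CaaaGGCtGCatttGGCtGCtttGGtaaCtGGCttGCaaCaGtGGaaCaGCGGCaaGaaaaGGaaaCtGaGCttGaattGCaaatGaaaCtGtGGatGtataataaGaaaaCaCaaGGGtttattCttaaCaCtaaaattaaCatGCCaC
RRP9: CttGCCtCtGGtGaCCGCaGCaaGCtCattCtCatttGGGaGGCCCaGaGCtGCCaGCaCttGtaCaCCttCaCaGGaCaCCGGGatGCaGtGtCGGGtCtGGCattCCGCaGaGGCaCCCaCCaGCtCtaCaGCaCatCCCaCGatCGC
WDR75 was at 5.46 FPKM in the PLC control and at 16.6, 17.1 and 6.50 under CDK4/6 inhibition, XPO1 inhibition and both, and at 13.3, 4.13, 6.25 and 10.7 in 97H. RRP9, given above, was lower in each treated PLC library. DDX21, an RNA helicase of the nucleolus with a transcript of 41.1% GC, ran like WDR75, at 12.2, 40.7, 28.4 and 14.9 in PLC and at 13.8, 5.23, 6.02 and 5.36 in 97H.

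Lines also differed from each other irrespective of treatment. Here each side was 1 line (n = 4 libraries, each with another treatment). A p-value sets the line difference against the spread between those libraries after treatment effects, and says nothing of lines in general. Over the 8 libraries of PLC and 97H, 17 of 51 genes (33.3%) were called between the lines, 13 lower and 4 higher in 97H. Of all tested genes 44.3% were called (27.7% lower and 16.6% higher). NPM1 was lower in 97H by 1.60 (SE 0.26, limma adjusted p = 0.00108), and NHP2 by 0.98 (SE 0.19, adjusted p = 0.003). Higher in 97H were POLR1E, a subunit of RNA polymerase I, by 1.44, NOP2, an rRNA methyltransferase, by 1.02, BOP1 by 1 and FBL by 0.70. Another gene annotated on the same strand (AC006064.6) covers 54.4% of the exonic bases of NOP2. The median of all tested genes was itself at -0.26, and near 0 (-0.01) after median ratio scaling, where 10 of the 51 (19.6%) and 41.6% of all tested genes were called and NHP2 was not (adjusted p = 0.0757). The fitted difference was below 0 for 38 of 51, against 61.7%, and the median of the 51 was -0.37, or -0.10 after that scaling.

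Members with and without the promoter hexamer had similar medians. With the combination the 18 genes with CACGTG had a median difference of -0.55 and the 25 without it -0.56. For the CDK4/6 inhibitor the medians were -0.48 and -0.47, and for the XPO1 inhibitor -0.10 in both. Over all tested genes the combination medians were 0.07 with and without it. MYC itself, whose product binds the hexamer, was at 36.0, 21.03, 47.8 and 43.8 FPKM in PLC, at 51.3, 40.03, 69.4 and 35.2 in 97H, and at 18.0 and 10.5 in Huh7. MYC was below the control with the CDK4/6 inhibitor in each line (-0.61, SE 0.26, limma adjusted p = 0.549) and above it with the XPO1 inhibitor in both lines (0.41, SE 0.34, adjusted p = 0.968), and the combination differed by -0.13 (SE 0.34, adjusted p = 0.935).

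A longer list of 93 other ribosome biogenesis genes set the 51 in their pathway. Of these, 91 were tested and 0 were called under either inhibitor (0% of all tested genes) or the combination (0.792%). At an unadjusted p under 0.05, 12 of 91 were lower with the CDK4/6 inhibitor, against 4.23% of all tested genes. With the XPO1 inhibitor it was 1, against 0.668%, and 0 were higher with either, against 4.57% and 1.79%. In the combination 11 of 91 were lower and 1 was higher at that level, against 6.07% and 6.35%. The median was -0.35, compared with -0.24 for the CDK4/6 inhibitor and -0.04 for the XPO1 inhibitor. Over all tested genes the medians were 0.07, 0.03 and 0.10 in the same order. The smallest p in the combination belonged to LAS1L, a pre-60S processing factor, with -1.17 (SE 0.28, adjusted p = 0.129), and WDR18, its partner, with -1.35 (SE 0.37, adjusted p = 0.169). NAT10, the acetyltransferase of 18S rRNA, had -1.04 (SE 0.31, adjusted p = 0.206), and NOP53, a late 60S factor, -0.96 (SE 0.34, adjusted p = 0.286). RIOK3, a kinase related to the 40S assembly factors RIOK1 and RIOK2, had a positive difference, 1.52 (SE 0.53, adjusted p = 0.277), from 2.24 in PLC and 0.80 in 97H.

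XPO1, the target of KPT330 and the receptor for NMD3, was at 8.65 FPKM in the PLC control, 20.6 under CDK4/6 inhibition, 48.3 under XPO1 inhibition and 18.1 under both. In 97H it was at 15.9, 5.71, 19.2 and 21.7, and in Huh7 at 21.4 and 9.84. The XPO1 inhibitor library was above the control in both lines, with a difference of 1.30 (SE 0.58, limma adjusted p = 0.968). CDKN1A, the gene of the cell cycle inhibitor p21, rose with the combination by 2.19 (SE 0.39, adjusted p = 0.0461), from 4.19 to 39.4 in PLC and from 26.0 to 71.3 in 97H, alongside the falls of FBL and NPM3. Like theirs, this call was lost without the PLC control (adjusted p = 0.111), the PLC combination (0.388) or the 97H combination (0.223), with no filter (0.307), with a single prior variance (0.0841) and without the line as a block (1).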

How the data were processed

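RNA of 10 libraries was measured by sequencing. The authors deposited FPKM per gene and library. Per the submitters' processing notes, CASAVA 1.8.2, STAR 2.4.2g1, featureCounts and Subread were used with build GRCh38; strand and counting settings are not stated there. Symbols turned into dates were restored for 27 entries. FPKM keep no absolute depth, and whole reads could not be recovered, so no count test was run.

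The 10477 genes averaging 1 FPKM or more across all libraries were tested on log2(FPKM + 1) with limma 3.58.1 in R 4.3.3 (variance trend, two-sided, Benjamini-Hochberg over all tested genes, threshold 0.05), with cell line as a block. The CDK4/6 inhibitor used all 10 libraries (4 residual degrees of freedom) and other comparisons the 8 libraries of PLC and 97H (3). A fold change on this scale understates that of low genes. Line pairs libraries by the labels; control and CDK4/6 inhibitor deviations correlated at 0.901 (Huh7), 0.665 (PLC) and 0.818 (97H). The scripts were tested on simulated data.

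Values per library are given for members called in a treatment comparison, the 8 smallest p in each comparison with control, the 5 largest gaps between PLC and 97H in the combination, the smallest p of each role group, NMD3, and target genes; WDR75 and DDX21 were added after their values were seen. Members and lists were chosen with earlier results of these data known. GC content came from GENCODE 29 transcripts. Alternatives were another pseudocount (0.1), filters, scalings, GC and length correction, a single prior variance, other samples, no block, and leaving out each library.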

Additional observations from a re-analysis of the deposited data

Results flagged for a closer look

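Some genes moved in opposite directions in PLC and 97H under the same treatment, by at least 0.5 on the log2 scale in each; the difference between the lines was not tested, since each line had 1 library per treatment. With the CDK4/6 inhibitor the log2 differences in PLC and 97H were 1.06 and -0.97 for GAR1, 0.52 and -0.58 for NOLC1, 0.80 and -1.12 for POLR1B, 1.34 and -1.37 for WDR12, and 1.14 and -1.18 for NIP7. With the XPO1 inhibitor POLR1B had 0.62 and -0.52. With the combination they were 1.27 and -0.90 for GAR1, 0.73 and -1.20 for WDR12, and 0.80 and -0.91 for NIP7. Counted over all 51 genes, 17 (33.3%) were higher in PLC and lower in 97H by that much under CDK4/6 inhibition, against 16.9% of all tested genes. Under XPO1 inhibition it was 11 (21.6%) against 5.26%, and under both 4 (7.84%) against 3.49%. The reverse was seen for 0 of the 51, and for 3.88%, 2.16% and 2.25% of all tested genes.

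These differences moved with GC content, as described above. With GC content and length trends removed, the counts were 8 of 51 (15.7%) against 4.35% of all tested genes under CDK4/6 inhibition, 3 (5.88%) against 1.44% under XPO1 inhibition, and 2 (3.92%) against 1.78% under both. The reverse was then seen for 0 of the 51 under CDK4/6 or XPO1 inhibition, against 0.852% and 0.727% of all tested genes. Under both it was seen for 1 (1.96%) against 1.36%, namely NMD3, with -0.56 in PLC and 0.63 in 97H. In that form WDR12 had 0.58 in PLC and -0.92 in 97H with the CDK4/6 inhibitor, GAR1 had 0.88 and -0.77, and POLR1B had 0.25 and -0.80. With the combination GAR1 then had 1.25 and -0.79, NIP7 0.57 and -0.72, and WDR12 0.35 and -1.03.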

How the results depend on the processing

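No called value changed sign under an alternative that was run; the uncalled medians of the XPO1 inhibitor and of the interaction did. Of the values of named genes under these alternatives, 595 kept their direction and side of the threshold, 18 kept the direction but no longer passed it, and 7 newly passed it. Most of the named values were not called in the main fits, so for them the same side means only that they stayed uncalled. The 2 members called in the combination became 0 with no filter on low genes, 0 with a single prior variance, 5 with GC content and length trends removed, 4 with all 10 libraries in the model, and 0 to 3 when 1 library was left out (0 without the PLC control, the PLC combination or the 97H combination, and 3, with BOP1, without the 97H control). Where a line lost its library, the remaining one was taken to vary like the other groups. Without the cell line as a replicate block, 0 members were called in the combination; leaving it out changed no other count of members called in a treatment comparison. All genes called in the combination numbered 83, 114 with a pseudocount of 0.1, 1 with no filter, 141 after quantile normalization, 129 after median ratio scaling, 576 with trends removed, 27 with a single prior variance, 261 with all 10 libraries and 0 without the block. Against the XPO1 inhibitor the combination had 1 member called with trends removed, FBL (-1.33, adjusted p = 0.0416), where 0.613% of all tested genes were called. The 17 members called between 97H and PLC became 11 with no filter (30.5% of all tested genes called), 10 after median ratio scaling (41.6%) and 9 to 26 when 1 library was left out (30.6% to 53.8%).

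The median over the members moved, when 1 library was left out, between -0.403 and 0.054 for the XPO1 inhibitor, between -0.54 and -0.27 for the combination against the CDK4/6 inhibitor (-0.27 with all 10 libraries), and between -0.352 and 0.041 for the interaction (-0.047 after median ratio scaling, -0.029 with all 10 libraries). It lay between -0.67 and -0.25 for the CDK4/6 inhibitor and between -0.87 and -0.38 for the combination. The cause of these shifts was not tested. Depth is unknown, so no limit of detection can be given.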

Other observations

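The other target and reference genes were in the same fits, and none had an adjusted p under 0.05 against control. CDK4, a target kinase, was at 213.6 FPKM in the PLC control and 112.5, 139.5 and 103 under CDK4/6 inhibition, XPO1 inhibition and both, at 208.5, 224.6, 210.9 and 167 in 97H, and at 159.8 and 78.7 in Huh7. Its differences were -0.61 (SE 0.24, limma adjusted p = 0.528), -0.30 (SE 0.30, adjusted p = 0.968) and -0.68 (SE 0.30, adjusted p = 0.39) for these treatments in turn. CDK6, the other target kinase, was at 0.54, 4.23, 2.56 and 1.44 in PLC, at 2.15, 1.10, 1.74 and 1.90 in 97H, and at 0.77 and 0.84 in Huh7. RB1, whose product these kinases phosphorylate, was at 0.20 to 0.48 FPKM in the 4 libraries of 97H, against 1.24 to 4.02 in PLC and 5.30 and 3.11 in Huh7. MYCN, a relative of MYC, was at 11.9 in the Huh7 control and 3.51 with the CDK4/6 inhibitor, and below 0.5 in PLC and 97H.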
